A study of Drosophila melanogaster with 6 samples.

Results

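The 9 genes described here encode the integrin subunits of *Drosophila melanogaster* and a pair of cytoplasmic proteins that tie integrins to the actin cytoskeleton. They were chosen by symbol from a list of names drawn up with earlier results of these data known, by a rule that used no measured value, and all 9 were found among the 17559 genes of the count table. The members are the β subunit genes *mys* and *Itgbn*, the α subunit genes *mew*, *if*, *scb*, *ItgaPS4* and *ItgaPS5*, the talin gene *rhea*, and *Ilk*. RNA was sequenced from wing imaginal discs, the larval precursors of the wing, dissected at the wandering stage of the third instar. The *Nup98-96* RNAi group had 3 libraries and expressed UAS-Nup98 RNAi HM05048, a hairpin against the gene of the nucleoporins Nup98 and Nup96. The *white* RNAi group also had 3 libraries and expressed UAS-white RNAi JF01540, a hairpin against an eye pigment gene, as control. Both groups shared UAS-P35, which encodes a baculovirus caspase inhibitor, *ap*-Gal4 with UAS-GFP, and *tub*-Gal80TS. Larvae were held at 18°C for 4 days with Gal4 off and then at 28°C for 72 h with Gal4 on, and each library pooled 40 discs. *ap*-Gal4 acts in the dorsal compartment, so RNA of the undriven ventral cells was part of every library. The p-values given here reflect the scatter among pools of discs.

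Integrins are heterodimers of an α and a β chain that bind the extracellular matrix outside the cell and, through talin, the actin cytoskeleton inside it. In the fly, βPS (*mys*) pairs with each of the αPS chains, whereas βν (*Itgbn*) is a divergent β chain. In the wing, αPS1 (*mew*) is known from the dorsal epithelium and αPS2 (*if*) from the ventral one, and loss of either, or of *mys*, lets the wing layers come apart into blisters. Talin and integrin linked kinase, a pseudokinase, are recruited to the β chain tail and carry the remaining linker proteins.

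The *Nup98-96* RNAi libraries held 70342787 to 100205246 counts and the *white* RNAi libraries 93428696 to 110330112 counts. Values are CPM, the count of a gene divided by the scaled library total and set to the same total for each library, with scaling by the trimmed mean of M values (TMM). A call of higher or lower required an adjusted p under 0.05 in edgeR's quasi-likelihood test together with a log2 fold change of 0.5 or more in size. Of the 7942 genes that entered the test, 26.6% met both criteria, 15.3% being higher and 11.2% lower in *Nup98-96* RNAi discs. *Nup98-96* itself averaged 311 ± 7.90 CPM in *Nup98-96* RNAi discs and 327 ± 9.86 CPM in *white* RNAi discs (SD, n = 3 each) and was not called, and reads of the hairpin cannot be told apart from reads of the gene. *w* averaged 998 ± 119 CPM in *Nup98-96* RNAi discs and 544 ± 50.9 CPM in *white* RNAi discs (SD, n = 3 each) and was called higher. Of 8 wing disc identity genes, all of them detected in all 6 libraries, 4 were lower and none was called higher by edgeR (1 was higher if p is left unadjusted, under 0.05). Markers of other cell types also differed. The summed level of 6 fat body genes was 50.3 to 85.6 CPM in *Nup98-96* RNAi libraries and 21.0 to 3482 CPM in *white* RNAi libraries, with the highest sum in *white* RNAi replicate 1. Summed levels of 5 tracheal genes were 1567 to 1722 CPM in *Nup98-96* RNAi libraries and 920 to 1205 CPM in *white* RNAi libraries. The secreted cuticle genes *verm*, *serp* and *Gasp* made up most of that sum and were called higher, whereas the tracheal identity genes *trh* and *btl* were called lower, at log2 fold changes of -0.85 and -0.57. Those of 6 myoblast genes were 242 to 254 CPM in *Nup98-96* RNAi libraries and 302 to 322 CPM in *white* RNAi libraries. Of the 6, 3 were called lower, against 11.2% of all genes tested, *Him* at -1.54, *zfh1* at -0.92 and *twi* at -0.84. *Mef2* at -0.30, *htl* at -0.06 and *stumps* at 0.30 were not called, and *stumps* was higher in every knockdown library than in any control library. Glial and neuronal genes, 6 in number, summed to 139 to 145 CPM in *Nup98-96* RNAi libraries and 76.3 to 80.5 CPM in *white* RNAi libraries. *elav* and *moody* made up most of that sum and were called higher, at log2 fold changes of 0.61 and 1.47. *Syt1*, at -1.11, was not called and its groups overlapped. *repo*, *nSyb* and *brp* were not tested, and in every knockdown library *nSyb* was higher and *brp* lower than in any control library. The 8 hemocyte genes summed to 62.3 to 85.6 CPM in *Nup98-96* RNAi libraries and 76.0 to 90.9 CPM in *white* RNAi libraries. Of the 6 hemocyte genes tested 2 were called lower, *srp* at a log2 fold change of -2.27 and *eater* at -1.24. None was called higher by edgeR, nor with p left unadjusted, under 0.05. The 4 not called were more abundant and differed in direction, *Hml* at 0.35, *PPO2* at 0.03, *crq* at -0.14 and *Pxn* at -0.57. *crq* was the largest part of the hemocyte sum and shares 15.73% of its exonic bases with *ex* on the opposite strand. Mean levels in *Nup98-96* RNAi against *white* RNAi discs were 0.643 against 3.11 CPM for *srp* and 0.780 against 1.84 CPM for *eater*. Both genes passed the filter on low counts only through *white* RNAi libraries, so their place among the tested genes rests on the group where they were higher. The hemocyte genes *He* and *NimC1*, which were not tested, reached at most 1.11 CPM in any library and were lower in every knockdown library than in any control library. No marker of the lists was at 0 in all libraries. The part of these markers in the results below was not tested. Values without *white* RNAi replicate 1 are given beside some of the results that it changed.

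Of the 9 members, 8 passed the filter on low counts, and among them *if* fell, none was called higher and 7 were not called. Of all genes tested, 15.3% were called higher and 11.2% lower. DESeq2 called no member higher either, and voom called *scb*. With p left unadjusted, under 0.05, 4 members were higher in edgeR, as were 2764 of the 7942 genes tested. The median log2 fold change of the 8 tested members was 0.28, against 0.00 for all genes tested. That median includes *ItgaPS4* (0.85), a gene of few counts that passed the filter only through *Nup98-96* RNAi replicate 3. With no minimum fold change, at an adjusted p under 0.05 alone, 65.8% of all genes tested passed. Of the members, 3 (*mys*, *rhea* and *Ilk*) were higher, against 33.3% of all genes tested, and 3 (*if*, *mew* and *ItgaPS5*) were lower, against 32.5%. In 7 of the 8 the 3 *Nup98-96* RNAi libraries did not overlap the 3 *white* RNAi libraries, a separation that 72.8% of all genes tested showed. The αPS2 gene was at less than the *white* RNAi level in every knockdown library, and the βPS and linker genes were slightly above it. The αPS3 gene was also above the *white* RNAi level, with a call that depended on *white* RNAi replicate 3 and on the scaling, filter or test.

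**Figure D1:**
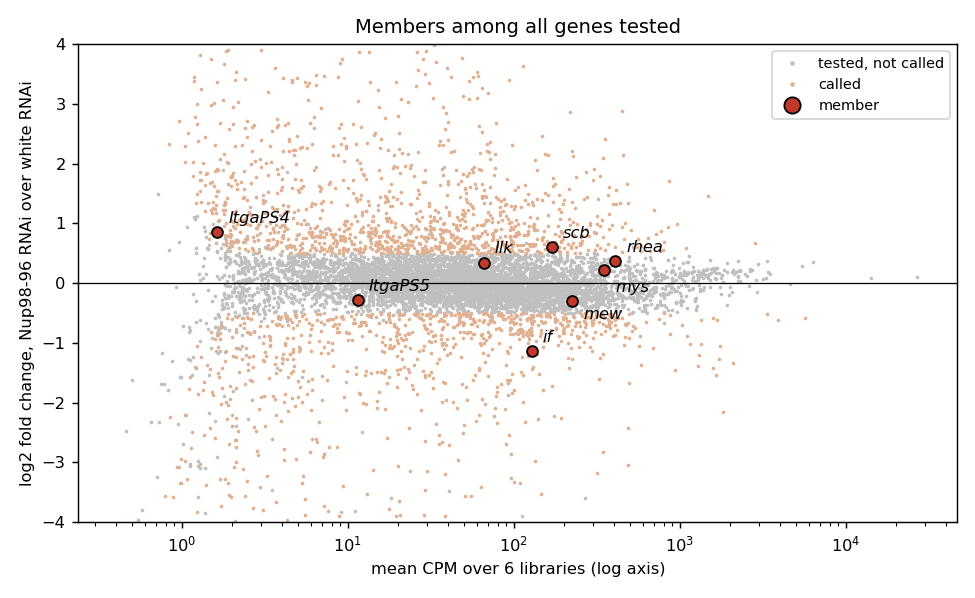
Log2 fold change of every gene tested (y axis, *Nup98-96* RNAi over *white* RNAi) against its mean CPM over the 6 libraries (x axis, log scale), with called genes in orange, other genes in grey and the 8 tested members ringed in black. *if*, at -1.13, is the only ringed gene among the called ones, and 145 genes beyond a log2 fold change of 4 in either direction are not drawn.

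The βPS gene *mys* (FBgn0004657, chromosome X of BDGP6, 8061645 to 8070237, plus strand) was at 370.3, 379.9 and 378.8 CPM in *Nup98-96* RNAi libraries, against 295.0, 318.2 and 359.5 CPM in *white* RNAi libraries. Every knockdown library lay above every control library, and the control libraries spread more widely. The log2 fold change was 0.21 (± 0.07 SE, adjusted p = 0.0303 by edgeR's quasi-likelihood test), below the minimum fold, and *mys* was not called. The shared β chain RNA thus averaged 376 ± 5.26 CPM in *Nup98-96* RNAi discs and 324 ± 32.7 CPM in *white* RNAi discs (SD, n = 3 each). The other β gene, *Itgbn* (FBgn0010395, chromosome 2L, 21053033 to 21058044, plus strand), had 16, 16 and 20 counts in *Nup98-96* RNAi libraries, against 12, 9 and 18 counts in *white* RNAi libraries. These counts are too few for the filter, the groups overlapped, and 10.15% of the exonic bases of *Itgbn* are shared with *CG9265* on the opposite strand. How reads over such shared bases were counted is not given in the sources used here, so they may have been left out of both genes. Fitted with no filter, its log2 fold change was 0.63 (± 0.46 SE, adjusted p = 0.317 by edgeR's quasi-likelihood test), so a difference was not detectable at this depth.

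In the wing, the product of the αPS2 gene *if* (FBgn0001250, chromosome X, 16752189 to 16783434, minus strand) is known from the ventral epithelium. *if* was the one member that passed both criteria of a call. It was at 76.6, 84.1 and 80.8 CPM in *Nup98-96* RNAi libraries, against 163.5, 182.2 and 184.4 CPM in *white* RNAi libraries. The groups were far apart and neither contained an outlying library. *if* averaged 80.5 ± 3.76 CPM in *Nup98-96* RNAi discs and 177 ± 11.5 CPM in *white* RNAi discs (SD, n = 3 each), a 2.20-fold lower level (log2 fold change -1.13 ± 0.06 SE, adjusted p = 8.93e-06 by edgeR's quasi-likelihood test). The call held in all 16 alternative analyses, with log2 fold changes between -1.19 and -1.10, and without *white* RNAi replicate 1 the value was -1.19. In RNA of whole discs, fewer cells that express a gene and less RNA per cell cannot be told apart, here and for the genes that follow. The discs also held RNA of the listed myoblast genes, which ran from -1.54 (*Him*) to 0.30 (*stumps*). Whether myoblasts had a part in the value of *if* was not tested.

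The αPS1 gene *mew* (FBgn0004456, chromosome X, 13214409 to 13258490, minus strand), the dorsal counterpart of *if*, was at 206.4, 191.5 and 205.3 CPM in *Nup98-96* RNAi libraries, against 257.9, 250.2 and 236.8 CPM in *white* RNAi libraries. Here too the groups did not overlap, but the step between them was small. It had a log2 fold change of -0.30 (± 0.05 SE, adjusted p = 0.00127 by edgeR's quasi-likelihood test), a 1.24-fold lower level that was not called. Per kilobase of exon, the ratio of *mew* to *if* was 3.11, 2.63 and 2.93 in *Nup98-96* RNAi libraries, against 1.82, 1.59 and 1.48 in *white* RNAi libraries. The ratio was thus higher in every knockdown library, and no test was applied to it. A set of genes known from the dorsal compartment, where the driver acts, is given further on.

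The αPS3 gene *scb* (FBgn0003328, chromosome 2R, 15248784 to 15258498, plus strand) encodes an α chain known from dorsal closure, tracheal and midgut development and synapses. It was at 199.7, 192.1 and 219.2 CPM in *Nup98-96* RNAi libraries, against 90.8, 127.4 and 183.5 CPM in *white* RNAi libraries. The knockdown libraries clustered tightly and lay above all controls, whereas the highest control library came close to them. The log2 fold change was 0.60 (± 0.23 SE, adjusted p = 0.0534 by edgeR's quasi-likelihood test), and *scb* was not called. Its highest control library was 2.02 times its lowest, wider than in all but 4.09% of the genes tested, for which the median was 1.10. With all 6 libraries kept, *scb* was called higher with upper quartile scaling (log2 fold change 0.65), library size only (0.64), filterByExpr (0.60), no filter (0.59) and voom (0.66). Of the control libraries left out singly, only *white* RNAi replicate 3 changed the call. Without *white* RNAi replicate 3 the log2 fold change was 0.90 and *scb* was called higher (adjusted p = 0.00199 by edgeR's quasi-likelihood test), and without *white* RNAi replicate 1 it was 0.39 and not called (adjusted p = 0.0412 from the same test, under the minimum fold).

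*ItgaPS4* (FBgn0034005, chromosome 2R, 15258761 to 15262873, plus strand) starts 262 bases downstream of *scb* on the same strand. It had 128, 167 and 249 counts in *Nup98-96* RNAi libraries, against 63, 89 and 203 counts in *white* RNAi libraries, or 1.81, 1.65 and 2.86 CPM against 0.662, 0.918 and 1.91 CPM. The groups overlapped, and the gene passed the filter only through *Nup98-96* RNAi replicate 3, so its place among the tested members rests on that library. It had a log2 fold change of 0.85 (± 0.45 SE, adjusted p = 0.132 by edgeR's quasi-likelihood test), and it was not called. Without *white* RNAi replicate 3 it was 1.41 and called higher (adjusted p = 0.0151 from the same test). Without *white* RNAi replicate 1 it was 0.57 and not called (adjusted p = 0.221). Its counts amounted to 0.905%, 0.859% and 1.30% of those of *scb* in *Nup98-96* RNAi libraries, against 0.730%, 0.721% and 1.04% in *white* RNAi libraries. Whether any of these reads came from *scb* transcripts was not tested. *ItgaPS4* also shares 66 exonic bases, 1.96% of its exonic length, with *Trpm* on the opposite strand, which had 5533 to 7764 counts per library.

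*ItgaPS5* (FBgn0034880, chromosome 2R, 23556672 to 23560263, plus strand), an α chain gene related to *scb* and *ItgaPS4*, was at 9.87, 10.7 and 10.4 CPM in *Nup98-96* RNAi libraries, against 12.2, 12.8 and 12.8 CPM in *white* RNAi libraries. It was low in both groups, lower in every knockdown library, and steady within each group. The log2 fold change was -0.29 (± 0.06 SE, adjusted p = 0.00488 by edgeR's quasi-likelihood test), and it was not called.

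**Figure D2:**
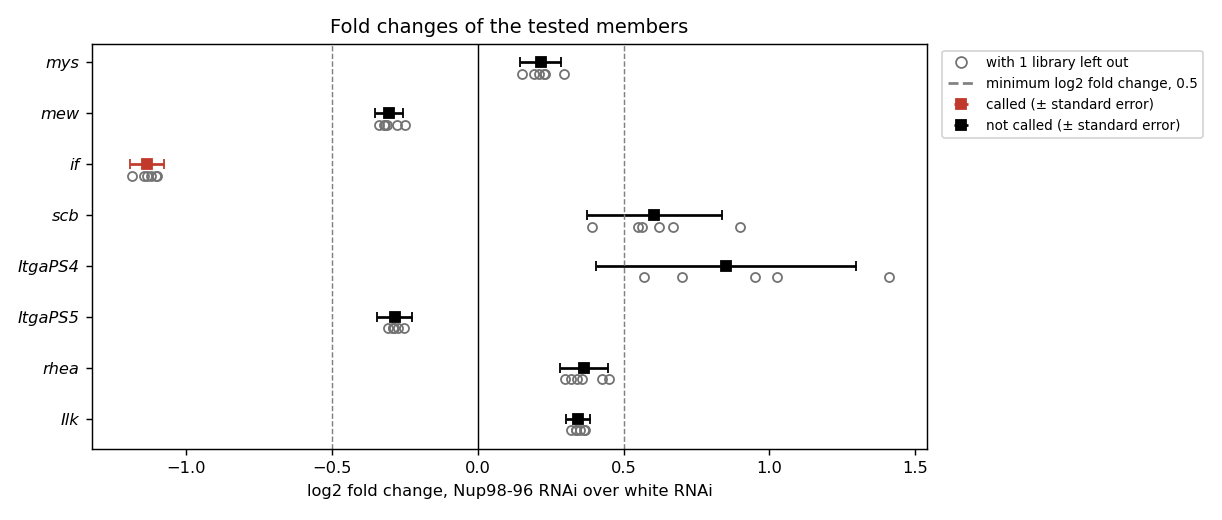
Log2 fold change of each tested member (x axis, *Nup98-96* RNAi over *white* RNAi) with its standard error from edgeR, in red where called. Open circles give the value with 1 library left out; those of *if* stay between -1.19 and -1.10, whereas those of *scb* run from 0.39 to 0.90 and those of *ItgaPS4*, which has 5 because it was not tested without *Nup98-96* RNAi replicate 3, from 0.57 to 1.41.

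The make-up of the α chain RNA differed between the groups, taking CPM per kilobase of exon so that genes of different length can be set side by side. The summed level of the α genes was 96.6 ± 3.94 CPM per kilobase in *Nup98-96* RNAi discs and 108 ± 9.25 in *white* RNAi discs (SD, n = 3 each), and the groups overlapped. Within that sum, *if* made up 13.3%, 15.04% and 13.3% in *Nup98-96* RNAi libraries, against 27.5%, 28.0% and 26.1% in *white* RNAi libraries. The share of *scb* was 41.6%, 41.3% and 43.5% in *Nup98-96* RNAi libraries, against 18.3%, 23.6% and 31.2% in *white* RNAi libraries. Both shares separated the groups, in opposite directions, and the share of *scb* in the controls was again the more variable one. The share of *mew* was 40.0% ± 1.17 in *Nup98-96* RNAi discs and 44.4% ± 5.68 in *white* RNAi discs (SD, n = 3 each) and overlapped. Thus *mew* and *scb* were the most abundant α chain RNAs in *Nup98-96* RNAi discs, at a ratio of *scb* to *mew* of 1.05 ± 0.0528. In *white* RNAi discs *mew* led, and the ratio was 0.567 ± 0.222 (SD, n = 3 each). The ratio of the summed α genes to *mys* was 1.16, 1.10 and 1.19 in *Nup98-96* RNAi libraries, against 1.503, 1.52 and 1.46 in *white* RNAi libraries. Relative to the shared β chain there was less α chain RNA in every knockdown library. These shares and ratios are descriptions with no test.

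**Figure D3:**
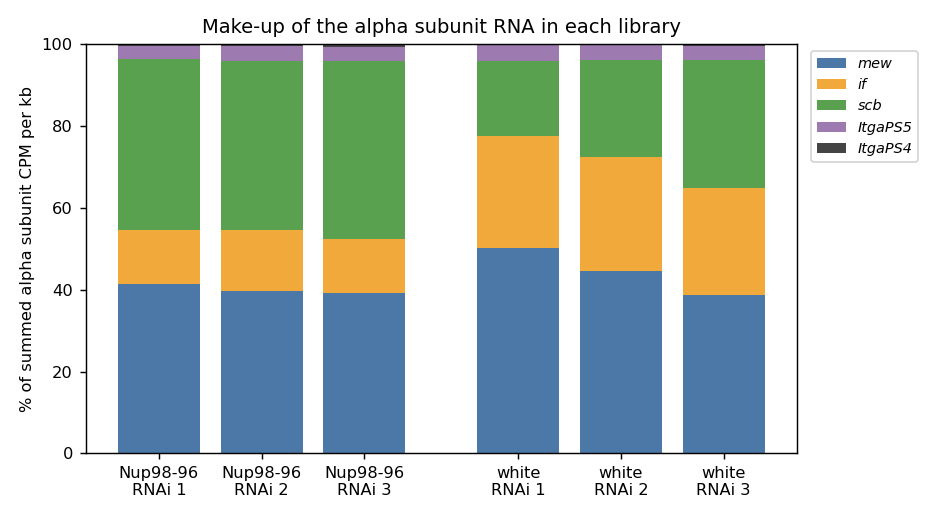
Share of each α subunit gene in the summed CPM per kilobase of exon of the α genes (y axis, percent), with 1 bar for each library. The orange segment, *if*, is 13.3% to 15.04% in the *Nup98-96* RNAi bars and 26.1% to 28.0% in the *white* RNAi bars, while the green segment, *scb*, is 41.3% to 43.5% in the *Nup98-96* RNAi bars and 18.3% to 31.2% in the *white* RNAi bars.

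The talin gene *rhea* (FBgn0260442, chromosome 3L, 8545001 to 8574409, plus strand), whose product joins the β chain tail to actin, was at 487.2, 417.6 and 474.8 CPM in *Nup98-96* RNAi libraries, against 324.7, 359.1 and 388.9 CPM in *white* RNAi libraries. The groups were separated by a narrow gap. It had a log2 fold change of 0.36 (± 0.08 SE, adjusted p = 0.00693 by edgeR's quasi-likelihood test), and *rhea* was not called. *Ilk* (FBgn0028427, chromosome 3L, 21216901 to 21219240, plus strand) was at 71.5, 75.1 and 74.6 CPM in *Nup98-96* RNAi libraries, against 57.5, 60.6 and 56.3 CPM in *white* RNAi libraries. Its libraries agreed closely within each group and did not overlap between them. The log2 fold change was 0.34 (± 0.04 SE, adjusted p = 0.000359 by edgeR's quasi-likelihood test), again under the minimum fold. Of the members, *if*, *scb*, *ItgaPS4*, *ItgaPS5*, *mys* and *rhea* had their lowest control value in *white* RNAi replicate 1, the library with the highest fat body sum. Without that library the log2 fold changes of *mys* and *rhea* were smaller, at 0.15 and 0.30, had the same sign, and neither was called.

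Per kilobase of exon, the members spanned from *mys* at 84.0 ± 1.17 to *Itgbn* at 0.0612 ± 0.0120 CPM per kilobase in *Nup98-96* RNAi discs (SD, n = 3). In these discs *mys* was followed by *rhea* at 41.5 ± 3.35, *scb* at 40.7 ± 2.79 and *mew* at 38.6 ± 1.59, whose libraries overlapped, so their order is not resolved. Below them came *Ilk* at 33.2 ± 0.889, *if* at 13.4 ± 0.626, *ItgaPS5* at 3.22 ± 0.133 and *ItgaPS4* at 0.626 ± 0.195 CPM per kilobase, each apart from its neighbours. In *white* RNAi discs *mys* at 72.3 ± 7.29 was followed by *mew* at 47.7 ± 2.06 CPM per kilobase (SD, n = 3). *rhea* at 32.3 ± 2.90, *if* at 29.4 ± 1.91, *scb* at 26.8 ± 9.33 and *Ilk* at 26.2 ± 1.00 CPM per kilobase then overlapped as a group in *white* RNAi discs. *if* thus stood among the linker genes in the controls and below all of them in knockdown discs.

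**Figure D4:**
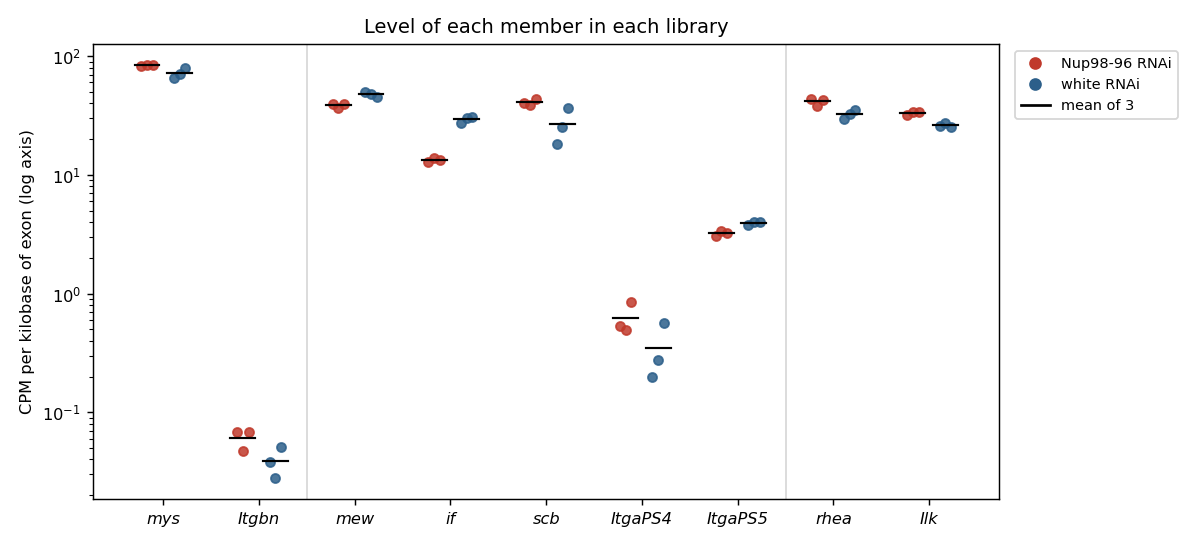
Level of each member in each library, as CPM per kilobase of exon on a log axis, with *Nup98-96* RNAi libraries in red, *white* RNAi libraries in blue and a bar at the mean of 3. The *if* points of the groups are the most widely separated of the abundant members, 12.7 to 13.99 in *Nup98-96* RNAi and 27.2 to 30.7 in *white* RNAi, and *Itgbn* and *ItgaPS4* lie far below the rest.

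The genes whose pattern over the 6 libraries was most like that of *mys* were *rho-4*, *CG3529* and *CG18659*. Likeness was the root mean square difference of log2 CPM centred on the control mean, taken over 6897 genes with a mean of at least 5 CPM. It was 0.0204 for *rho-4*, 0.0225 for *CG3529* and 0.0277 for *CG18659*, against a median of 0.25 over all genes searched. Their log2 fold changes were 0.23, 0.23 and 0.21, close to that of *mys* by construction.

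The extracellular partners of the integrins did not share a direction. Of 10 genes of integrin ligands and the basement membrane, all tested, 3 were higher and 2 lower, against 15.3% and 11.2% of all genes tested, and 5 had no call, with a median log2 fold change of 0.24. In this and the following lists, genes other than the most strongly called ones were picked for naming after their values were seen. *Ndg*, whose product nidogen joins the laminin and collagen networks, was at 57.1, 58.0 and 50.4 CPM in *Nup98-96* RNAi libraries, against 5.59, 3.62 and 2.05 CPM in *white* RNAi libraries. It rose 14.8-fold, with wide separation between the groups (log2 fold change 3.88 ± 0.33 SE, adjusted p = 6.97e-05 by edgeR's quasi-likelihood test). The log2 fold change of *Ndg* was 4.29 without *white* RNAi replicate 1. *Tig*, which encodes tiggrin, a ligand of the αPS2βPS integrin, was at 79.6, 70.5 and 78.5 CPM in *Nup98-96* RNAi libraries, against 48.0, 16.0 and 16.4 CPM in *white* RNAi libraries. It was called higher (log2 fold change 1.51 ± 0.43 SE, adjusted p = 0.0175 by edgeR), with *white* RNAi replicate 1 apart from the other controls. Without *white* RNAi replicate 1 the log2 fold change was 2.23 (adjusted p = 2.83e-07). The call was lost without *Nup98-96* RNAi replicate 1 (adjusted p = 0.0514) and without *white* RNAi replicate 2 (adjusted p = 0.0554). *Tsp*, the gene of thrombospondin, another αPS2βPS ligand, went the other way, at 88.6 ± 1.61 CPM in *Nup98-96* RNAi discs and 161 ± 16.8 CPM in *white* RNAi discs (SD, n = 3 each, log2 fold change -0.86, adjusted p = 8.18e-05 by edgeR's quasi-likelihood test). The ligands of αPS2 therefore differed in direction from each other.

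Among the laminin chains, only the γ chain gene *LanB2* was called, at 286 ± 1.54 CPM in *Nup98-96* RNAi discs and 463 ± 23.2 CPM in *white* RNAi discs (SD, n = 3 each, log2 fold change -0.70, adjusted p = 1.55e-05 by edgeR's quasi-likelihood test). The β chain gene *LanB1* had a log2 fold change of -0.07, and the α chain genes *LanA* and *wb* had values of -0.06 and -0.36. *wb* was called lower without *white* RNAi replicate 1, at -0.53. The perlecan gene *trol*, a heparan sulphate proteoglycan of basement membranes, was called higher at 939 ± 24.6 CPM in *Nup98-96* RNAi discs and 642 ± 27.5 CPM in *white* RNAi discs (SD, n = 3 each, log2 fold change 0.55, adjusted p = 3.6e-05 by edgeR's quasi-likelihood test). The collagen IV chain genes *Col4a1* and *vkg* had no call, at log2 fold changes of 0.68 and 0.76. Their control libraries were spread, and without *white* RNAi replicate 1 both were called higher, at 1.07 and 1.16, which brought the count of higher genes in the list to 5.

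**Figure D5:**
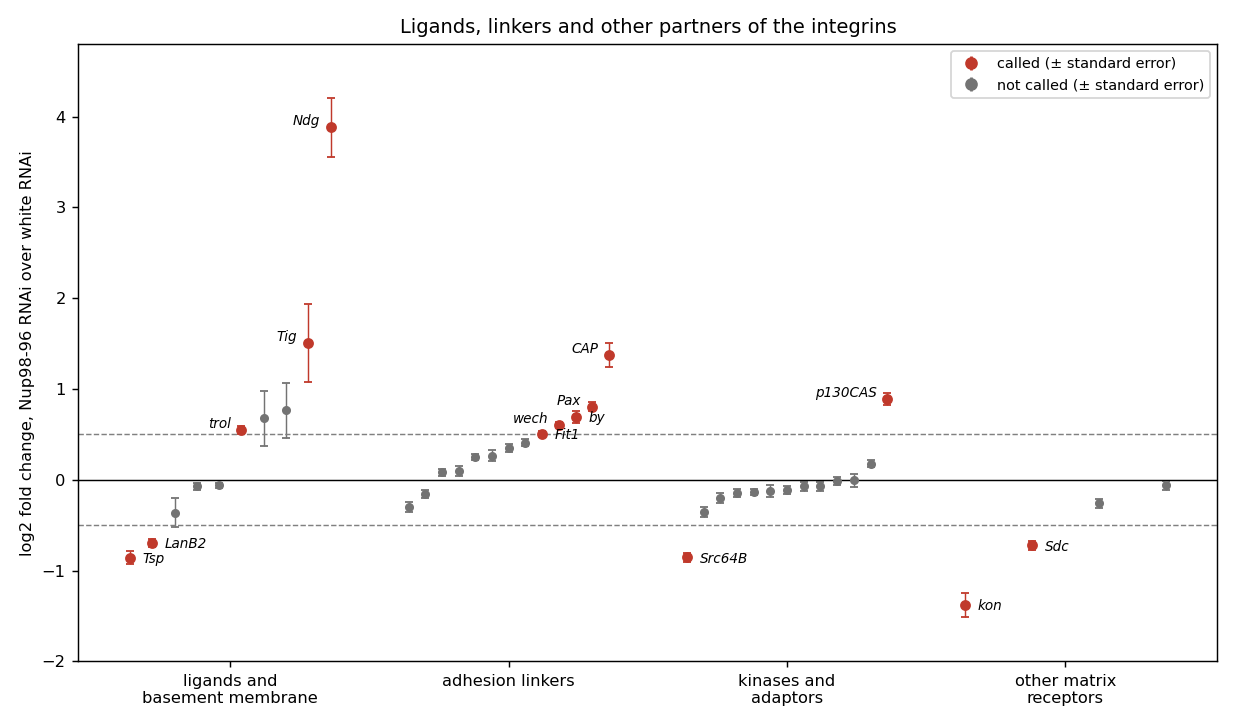
Log2 fold change (y axis, *Nup98-96* RNAi over *white* RNAi) with its standard error for each tested gene of the partner lists, ordered within each list, with called genes in red and named. Called genes of the adhesion linkers lie above 0, from *Fit1* at 0.50 to *CAP* at 1.38, and those of the other matrix receptors lie below 0, whereas the ligands run from *Tsp* at -0.86 to *Ndg* at 3.88.

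Of 14 genes of cytoplasmic adhesion linkers, among them the complex of Ilk, PINCH and parvin, 13 were tested, 5 were higher and none was lower, against 15.3% and 11.2% of all genes tested, with a median log2 fold change of 0.35. No member of the list was called lower with DESeq2 or with limma on voom values either. With no minimum fold change 9 were higher and 2 were lower, against 33.3% and 32.5% of all genes tested, the same counts as at an unadjusted p under 0.05. The largest change was that of *CAP*, whose product binds vinculin, at 24.2, 24.4 and 27.2 CPM in *Nup98-96* RNAi libraries, against 11.6, 9.46 and 8.12 CPM in *white* RNAi libraries (log2 fold change 1.38 ± 0.13 SE, adjusted p = 0.000117 by edgeR's quasi-likelihood test). *Pax*, the paxillin gene, rose to 148 ± 4.63 CPM in *Nup98-96* RNAi discs, against 84.5 ± 4.84 CPM in *white* RNAi discs (SD, n = 3 each, log2 fold change 0.80), and 7.12% of its exonic bases are shared with *Alp12* on the opposite strand. The tensin gene *by* rose with a log2 fold change of 0.69. *wech*, whose product bridges talin and Ilk, rose to 196 ± 5.23 CPM in *Nup98-96* RNAi discs, against 129 ± 0.757 CPM in *white* RNAi discs (SD, n = 3 each, log2 fold change 0.60). The kindlin gene *Fit1* was called at a log2 fold change of 0.50, on the threshold, and the call was lost without *Nup98-96* RNAi replicate 1 (0.49) and without *white* RNAi replicate 3 (0.48). The partners of Ilk in its complex stayed under the minimum fold, *parvin* with a log2 fold change of 0.35, *ics* with 0.25 and *stck*, the PINCH gene, with 0.08. The second kindlin gene *Fit2* was at 0.09 and the vinculin gene *Vinc* at 0.26.

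Of 13 genes of adhesion kinases and adaptors, 1 was higher and 1 was lower, against 15.3% and 11.2% of all genes tested. *p130CAS*, a scaffold of Src and Fak signalling, was at 126.5, 118.1 and 126.4 CPM in *Nup98-96* RNAi libraries, against 69.5, 60.2 and 70.8 CPM in *white* RNAi libraries (log2 fold change 0.89 ± 0.07 SE, adjusted p = 4.49e-05 by edgeR's quasi-likelihood test). The Src family kinase gene *Src64B* fell to 68.0 ± 0.136 CPM in *Nup98-96* RNAi discs, against 123 ± 8.13 CPM in *white* RNAi discs (SD, n = 3 each, log2 fold change -0.85, adjusted p = 1.45e-05 by edgeR's quasi-likelihood test). *Fak* was not called, with a log2 fold change of -0.11. The median of the list was -0.11, and its remaining genes were not called.

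The other matrix receptors were at negative log2 fold changes in 4 of 4 genes, as were 3964 of the 7942 genes tested. Of the 4, 2 were called lower, against 11.2% of all genes tested, and none higher in edgeR, in DESeq2 or in voom, nor in edgeR with p left unadjusted, under 0.05. *kon*, which encodes a transmembrane proteoglycan, was at 52.1, 45.5 and 53.0 CPM in *Nup98-96* RNAi libraries, against 107.3, 130.2 and 153.9 CPM in *white* RNAi libraries. The groups were far apart (log2 fold change -1.38 ± 0.13 SE, adjusted p = 0.000129 by edgeR's quasi-likelihood test), and 3.32% of the exonic bases of *kon* are shared with *grnd* on the opposite strand. The syndecan gene *Sdc* fell to 272 ± 1.96 CPM in *Nup98-96* RNAi discs, against 449 ± 30.8 CPM in *white* RNAi discs (SD, n = 3 each, log2 fold change -0.72). The dystroglycan gene *Dg* and the collagen receptor gene *Ddr* were not called, at -0.26 and -0.06.

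Because *ap*-Gal4 drives the RNAi dorsally and *mew* and *if* mark opposite wing surfaces, 7 genes known from the dorsal compartment were set beside them. Of these 1 was higher and 1 lower, against 15.3% and 11.2% of all genes tested, and 5 had no call, with a median log2 fold change of -0.32. With no minimum fold change 5 were lower and 1 was higher, against 32.5% and 33.3% of all genes tested. The selector gene *ap*, whose regulatory sequences drive Gal4, was at 302.2, 310.7 and 315.1 CPM in *Nup98-96* RNAi libraries, against 378.7, 393.4 and 419.9 CPM in *white* RNAi libraries. The groups did not overlap, and the log2 fold change was -0.36 (± 0.04 SE, adjusted p = 0.000418 by edgeR's quasi-likelihood test), under the minimum fold. Of the other dorsal genes, *trn* was at -0.42, *Dr* at -0.32, *fng* at -0.22 and *caps* at 0.04, none of them called. The dorsal α gene *mew* was at -0.30 and *if* at -1.13, with no test of either against the dorsal genes. The 7 genes as a list ran from -0.57 to 0.54, and no list of ventral genes was set beside *if*. *Ser*, a Notch ligand gene, was called higher at 0.54, and *Bx*, which encodes an antagonist of Apterous, was called lower at -0.57, a call lost without *white* RNAi replicate 1 (-0.49).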

How the data were processed

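RNA-seq of polyadenylated RNA from pools of 40 wing discs gave 3 libraries for *Nup98-96* RNAi and 3 for *white* RNAi. The authors used Rsubread for alignment to BDGP6, and the deposited counts per gene were made with featureCounts ignoring strand. Reads over genes that overlap on opposite strands may therefore have been left out or counted for either gene, and which is not given in the sources used here. The counts are not normalized. A second deposited table holds the authors' own comparison (fold changes, p-values and scores), which was not used, and its annotation columns, which named 75 genes.

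Members and gene lists were chosen with earlier results of these data known. Of 96 listed symbols 95 were matched, and the hemocyte gene *PPO1* was not. Named are the 9 members, the targets of both hairpins, the 3 genes most like *mys*, and in each list of partners the called genes at both ends of the log2 fold change, up to 2 at each end. The remaining partner genes in the text were picked after their values were seen. Exonic lengths and positions came from an Ensembl annotation of BDGP6. For *scb*, whose identifier in the counts is retired, the symbol came from the deposited annotation columns.

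Low counts were removed by a Jaccard similarity filter (thresholds 1 to 200 in 100 steps, loess span 0.3), which chose 200 normalized counts in at least 1 library. The test was edgeR 4.0.16's quasi-likelihood test (glmQLFit, glmQLFTest) with TMM and Benjamini-Hochberg adjustment, in R 4.3.3. The scripts were tested on simulated data. No replicate pair agreed within sampling noise (chi-square over its degrees of freedom 12.0 to 118), so all 6 libraries counted as separate samples. Likeness to *mys* used a pseudocount of 0.5 CPM. Alternatives were other scalings (RLE, upper quartile, library size), other filters, DESeq2 1.42.0, voom in limma 3.58.1, glmTreat, dropping the minimum fold, a block for the replicate number, and the omission of single libraries.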

Additional observations from a re-analysis of the deposited data

How the results depend on the processing

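The direction of each tested member was the same in every alternative that tested it, and *if* was called in all 16. The count of members called, 1, became 2 with scaling by upper quartile, library size only, filterByExpr, no filter on low counts or voom, in each through *scb*, and 6 with no minimum fold change. With 1 library left out it ranged from 1 to 3, the 3 arising without *white* RNAi replicate 3 through *scb* and *ItgaPS4*. The count of all genes called, 2109, became 3169 with no filter, 5226 with no minimum fold change and 1495 with glmTreat, and ranged from 2004 to 2230 with 1 library left out. In glmTreat the calls of *Tig*, *trol*, *Fit1*, *Bx* and *Ser* were lost, and that of *Fit1* also with filterByExpr, with no filter and with DESeq2. The replicate numbers did not pair the samples (correlations of the deviations of same-numbered libraries -0.17, 0.00015 and 0.0124). No library correlated best with the library of its own number in the other group. With the replicate block, 2076 genes and 3 members were called, *scb* at a log2 fold change of 0.66 and *ItgaPS4* at 0.95 besides *if*. At 9 to 20 counts per library, depth limits *Itgbn*.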
